A study of Arabidopsis thaliana with 20 samples.

Results

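SAUR genes (small auxin up RNA) of *A. thaliana* were compared between shoots from Parafilm-sealed dishes without air flow and shoots from actively aerated dishes. The 33 genes described here are those whose deposited gene description contains the word SAUR, out of 33296 genes in the table. The choice used the description alone and no measured value. Col-0 plants grew on half-strength MS agar with 1% sucrose, with 10 plants to a plate. Each library was made from the pooled shoots of a plate, and there were 4 libraries per treatment. In the Parafilm-sealed treatment the covers were opened only briefly after vernalization, and in the aerated treatment air flowed through the dish at 0.15 to 0.25 L/min. By the sample labels, shoots of both treatments were harvested 15 days after vernalization. The paper gives a lower day number for the collection of the sequenced shoots and places it within the light period. The libraries are named as in the deposited table, NON2, NON4, NON6 and NON8 for Parafilm-sealed plants and AER1, AER3, AER5 and AER7 for aerated plants, and values per library are given in this order. They are normalized counts, that is, read counts divided by the size factor of the library.

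SAUR genes form the largest family of early auxin response genes in plants. Auxin binds the TIR1/AFB receptors, Aux/IAA repressors are degraded, and the released auxin response factors (ARFs) switch on SAUR, GH3 and Aux/IAA genes within minutes. Many SAUR proteins inhibit the PP2C.D phosphatases, which otherwise hold plasma membrane proton pumps in a less active state, and this leads to acidification of the cell wall and to cell expansion. Most SAUR genes have no intron, and many lie in tandem arrays of similar copies.

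Of the 33 genes, 27 passed the limit of 10 normalized counts in at least 4 libraries and were tested. SAUR61, SAUR63, SAUR58, SAUR40, SAUR13 and SAUR75 did not. SAUR63 and SAUR13 were at 0 in every library, and the other 4 did not exceed 3.4 normalized counts in any library. SAUR58 was detected in all of the Parafilm-sealed libraries at 0.9, 1.2, 3.2 and 3.0 normalized counts and in none of the aerated ones, too few counts for a comparison. In the reference annotation an antisense gene covers 89.3% of the exon bases of SAUR13, 47.3% of those of SAUR61 and 25.6% of those of SAUR63, and the libraries carried no strand. Low counts of these genes are therefore not taken as absence of expression. A gene whose description reads SAUR21, AT5G01830 (chromosome 5, 320349 to 323213), encodes an ARM repeat protein in the reference and is not a SAUR gene. The SAUR21 of the SAUR19 to SAUR24 group is AT5G18030. AT5G01830 stays in the counts as the rule chose it, but it is set apart below, and counts without it cover 32 genes, of which 26 were tested.

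The arrays that carry much of the result are shown here by their coding sequences. SAUR19 to SAUR24 lie within chromosome 5, 5962773 to 5984308 (TAIR10.1). Their coding sequences are identical at 87.7% to 95.2% of alignment columns, with gaps counted as differences (median 91.2% over 15 pairs). SAUR19, SAUR22, SAUR23 and SAUR24 have the same coding length, 273 bases. They are printed 5′ to 3′ on the coding strand from the RefSeq TAIR10.1 genome, with capitals at the 37 positions where these 4 differ.
SAUR19 (chr5:5962773-5963405, minus strand): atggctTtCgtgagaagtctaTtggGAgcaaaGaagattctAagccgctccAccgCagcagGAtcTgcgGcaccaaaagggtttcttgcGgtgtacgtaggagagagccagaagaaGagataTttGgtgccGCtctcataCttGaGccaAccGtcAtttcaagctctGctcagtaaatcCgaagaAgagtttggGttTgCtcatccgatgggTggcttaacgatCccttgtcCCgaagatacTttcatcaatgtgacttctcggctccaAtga
SAUR22 (chr5:5974341-5975087, minus strand): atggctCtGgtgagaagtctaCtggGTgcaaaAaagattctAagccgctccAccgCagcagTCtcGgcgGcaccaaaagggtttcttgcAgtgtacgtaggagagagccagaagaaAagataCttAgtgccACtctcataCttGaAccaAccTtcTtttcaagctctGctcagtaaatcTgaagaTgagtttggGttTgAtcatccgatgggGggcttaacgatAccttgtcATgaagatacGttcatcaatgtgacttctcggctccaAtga
SAUR23 (chr5:5975780-5976589, plus strand): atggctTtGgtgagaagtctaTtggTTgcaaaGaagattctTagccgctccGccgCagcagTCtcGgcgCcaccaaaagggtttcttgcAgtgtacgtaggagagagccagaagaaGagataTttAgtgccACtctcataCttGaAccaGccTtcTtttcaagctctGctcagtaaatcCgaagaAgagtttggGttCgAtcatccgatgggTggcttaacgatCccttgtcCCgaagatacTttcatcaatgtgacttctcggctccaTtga
SAUR24 (chr5:5983683-5984308, plus strand): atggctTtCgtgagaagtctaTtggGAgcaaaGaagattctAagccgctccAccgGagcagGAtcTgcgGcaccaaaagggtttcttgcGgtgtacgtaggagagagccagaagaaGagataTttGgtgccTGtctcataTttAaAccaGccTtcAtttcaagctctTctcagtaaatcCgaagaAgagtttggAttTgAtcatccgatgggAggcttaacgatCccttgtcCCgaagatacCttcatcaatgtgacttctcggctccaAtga
The coordinates are those of the whole gene. The differences are spread along the sequence, and no stretch of 100 bases (the read length) in the exons of SAUR19 to SAUR24 occurs unchanged anywhere else in the genome. Among the other genes, such stretches made up 21.6% of the exon windows of SAUR67, 18.9% of SAUR63, 11.6% of SAUR75 and 8.6% of SAUR62, and their counts are therefore less certain. The remaining 29 genes had none.

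Most of the SAUR genes that changed were lower in Parafilm-sealed plants. Among the 27 tested genes, 13 were lower and 2 were higher in Parafilm-sealed plants at an adjusted p value under 0.05 (limma, Benjamini-Hochberg over all tested genes), and 12 did not pass. Of all 20160 genes tested, 10.0% were lower and 12.4% were higher by the same rule. With a fold change of at least 2 as a further condition, 8 SAUR genes were lower and 2 were higher, where 2.63% and 5.24% of all genes were. The count of 8 was 5 without NON4 and 5 without AER5, and 1 gene was higher by at least 2-fold in place of 2 without NON2, NON8, AER3 or AER7. Over the 27 genes, log2 fold changes (Parafilm-sealed over aerated) had a median of -0.87, and -0.92 without AT5G01830. The median over all genes tested was -0.0024. The libraries of the treatments did not overlap in 17 genes with lower and 3 genes with higher counts in Parafilm-sealed plants, where 13.0% and 14.3% of all genes tested showed this. Because only genes above the limit on counts were tested, these numbers describe the genes among the 33 that reached it. They do not describe the whole family, whose other tested genes, given below, had a median of -0.07. In whole shoots, fewer cells that express a gene and less RNA per cell cannot be told apart.

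**Figure D1:**
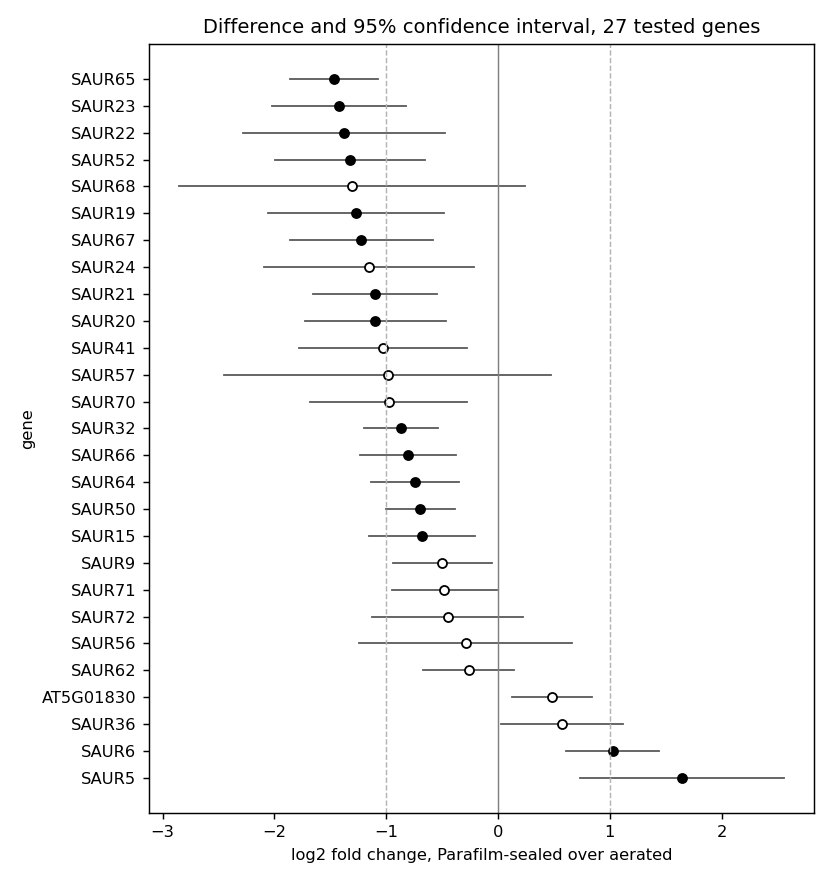
Log2 fold change of each of the 27 tested genes, Parafilm-sealed over aerated (x axis), with bars for the 95% confidence interval of the limma fit, filled points past adjusted p 0.05 and dashed lines at a 2-fold change. Of the 27 genes, 23 lie left of 0, and the filled points run from -1.47 for SAUR65 to 1.65 for SAUR5.

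The summed normalized counts of the 32 genes without AT5G01830 were 3964, 3083, 3215 and 3297 in Parafilm-sealed and 4014, 4429, 5252 and 4268 in aerated libraries. The ratio of the means was 0.755, Parafilm-sealed over aerated, and it was 0.80 without AER5. In these sums the treatments did not overlap, though NON2 and AER1 differed by little. The sums describe the 32 genes only. Of the other SAUR genes tested, described below, 7 were lower and 4 higher, where 10.0% and 12.4% of all genes were. SAUR78, a higher one of these, alone had means of 5907 normalized counts in Parafilm-sealed and 3162 in aerated libraries. Within the aerated group AER5 was highest in 19 of 26 genes and AER1 lowest in 13. Within the Parafilm-sealed group NON2 was highest in 15 genes and NON4 lowest in 12. The median deviation of the 26 genes from their treatment mean was 0.31 (log2) in AER5 and -0.25 in NON4, where it was 0.0082 and -0.0084 over all tested genes.

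The array of SAUR19 to SAUR24 held 6 genes, all of them tested. Proteins of this group sit at the plasma membrane and promote cell expansion when stabilized. Of the 6 genes, 5 passed the test, all lower in Parafilm-sealed plants and all by at least 2-fold. In all 6 the treatments did not overlap. Of all genes tested, 10.0% were lower and 2.63% were lower by at least 2-fold. In 13.0% of all genes tested, every Parafilm-sealed library was below every aerated one. The median log2 fold change of the array was -1.21. Summed over the array, normalized counts were 312, 179, 339 and 355 in Parafilm-sealed and 507, 621, 973 and 611 in aerated libraries. The highest Parafilm-sealed library thus stood below the lowest aerated library. The ratio of the means was 0.437, and without AER5, which had the highest sum, it was 0.511.

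SAUR23 (AT5G18060, chromosome 5, 5975780 to 5976589) had 60.4, 34.9, 31.9 and 49.0 normalized counts in Parafilm-sealed and 78.1, 138.2, 141.1 and 117.8 in aerated libraries. On the log2 scale SAUR23 changed by -1.42 (standard error, SE, 0.27, limma adjusted p = 0.00498). Every Parafilm-sealed library was below every aerated one. SAUR22 (AT5G18050, 5974341 to 5975087) had 37.2, 14.4, 39.3 and 51.2 normalized counts in Parafilm-sealed and 63.8, 78.8, 151.6 and 70.5 in aerated libraries. Its log2 fold change was -1.38 (SE 0.40, limma adjusted p = 0.035). NON4 was the lowest and AER5 the highest by a wide margin. The call of SAUR22 was lost without NON2 (adjusted p = 0.0583), NON4 (0.0537), NON6 (0.0519), AER3 (0.0674), AER5 (0.0900) or AER7 (0.0638), while its log2 fold change stayed between -1.59 and -1.01 over the 8 fits that left out a library.

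SAUR19 (AT5G18010, 5962773 to 5963405), a gene much used in work on auxin-induced growth, had 40.0, 13.2, 22.3 and 33.2 normalized counts in Parafilm-sealed and 48.7, 58.2, 89.7 and 57.6 in aerated libraries. The log2 fold change of SAUR19 was -1.27 (SE 0.35, limma adjusted p = 0.0282). NON2 and AER1 came closest to each other. This call was lost without NON6 (adjusted p = 0.0630), AER3 (0.0589), AER5 (0.0759) or AER7 (0.0645). SAUR21 (AT5G18030, 5968352 to 5969190) had 65.0, 54.1, 120.1 and 78.4 normalized counts in Parafilm-sealed and 132.7, 157.6, 204.4 and 167.7 in aerated libraries. For SAUR21 the log2 fold change was -1.10 (SE 0.25, limma adjusted p = 0.0116), and the call was kept with each library left out in turn. NON6 was the Parafilm-sealed library nearest to the aerated range.

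SAUR20 (AT5G18020, 5966183 to 5966785) had 43.7, 43.3, 59.5 and 70.1 normalized counts in Parafilm-sealed and 95.8, 97.1, 200.4 and 92.0 in aerated libraries. Its log2 fold change was -1.10 (SE 0.28, limma adjusted p = 0.0214). Apart from AER5, the aerated libraries were within a narrow range. The call was lost without NON2 (adjusted p = 0.0557) or NON4 (0.052). SAUR24 (AT5G18080, 5983683 to 5984308) had 66.0, 19.2, 65.9 and 73.1 normalized counts in Parafilm-sealed and 88.2, 91.4, 185.9 and 105.8 in aerated libraries. The treatments did not overlap, but with a log2 fold change of -1.15 (SE 0.42) SAUR24 did not pass the test (adjusted p = 0.0761, limma).

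**Figure D2:**
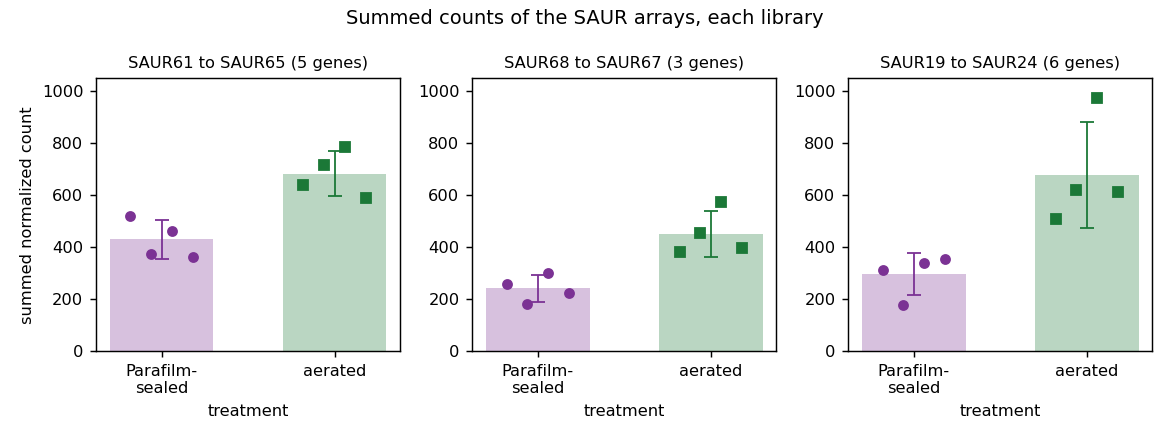
Summed normalized counts (y axis, from 0) of the genes of each array, with a point per library, bars for the mean and error bars for the SD (n = 4). Parafilm-sealed libraries lie below all aerated libraries in each array, with sums of 179 to 355 against 507 to 973 for SAUR19 to SAUR24.

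A pair of arrays on chromosome 1 holds genes of the SAUR63 group, which is known for promoting elongation of hypocotyls and stamen filaments. SAUR61 to SAUR65 lie within 10301377 to 10308246 and SAUR68 to SAUR67 within 10319732 to 10323239. Coding sequences were identical at 61.5% to 89.0% of alignment columns among the 5 genes from SAUR61 to SAUR65. Among the 3 genes from SAUR68 to SAUR67 the range was 58.3% to 81.0%. Gaps counted as differences, and coding lengths ran from 309 bases (SAUR68) to 561 (SAUR65). Differences in length thus lower these values, which do not measure divergence of the shared stretches alone. In each array 2 of 3 tested genes passed, all of them lower in Parafilm-sealed plants, where 10.0% of all genes tested were.

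SAUR65 (AT1G29460, 10307352 to 10308246) showed the smallest adjusted p value of the family. It had 82.7, 62.5, 59.5 and 68.6 normalized counts in Parafilm-sealed and 175.6, 172.5, 243.9 and 174.5 in aerated libraries. The log2 fold change of -1.47 (SE 0.18, limma adjusted p = 0.000543) corresponds to a level in Parafilm-sealed plants of 0.361 times that in aerated plants. Both treatments were tight except for AER5. SAUR64 (AT1G29450, 10305553 to 10306595) had 155.2, 98.6, 142.4 and 131.1 normalized counts in Parafilm-sealed and 206.6, 235.3, 253.2 and 183.1 in aerated libraries. The change of SAUR64 was smaller, with a log2 fold change of -0.74 (SE 0.18, limma adjusted p = 0.0144), and the treatments did not overlap. The third tested gene of this array, SAUR62 (AT1G29430), had 280.6, 214.1, 261.5 and 162.7 normalized counts in Parafilm-sealed and 257.9, 307.2, 288.8 and 232.1 in aerated libraries. These ranges overlapped, and the log2 fold change of SAUR62 was -0.26 (95% confidence interval -0.67 to 0.14, adjusted p = 0.332, limma). SAUR61 reached 1.9 normalized counts in NON2 and 3.4 in AER3 and was at 0 elsewhere.

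In the second array SAUR67 (AT1G29510, 10322423 to 10323239, SAUR68 by its reference symbol) had 66.0, 28.9, 44.6 and 39.2 normalized counts in Parafilm-sealed and 89.0, 85.7, 152.9 and 89.4 in aerated libraries. Its log2 fold change was -1.22 (SE 0.29, limma adjusted p = 0.0137). Without AER5 the aerated libraries were nearly equal. SAUR66 (AT1G29500, 10321011 to 10321978) had 179.3, 143.1, 257.2 and 178.6 normalized counts in Parafilm-sealed and 287.3, 336.9, 408.7 and 281.1 in aerated libraries. The log2 fold change of SAUR66 was -0.81 (SE 0.19, limma adjusted p = 0.0154). NON6 came close to the aerated libraries. SAUR68 (AT1G29490) was expressed at a low level, with 12.1, 9.6, 1.1 and 8.3 normalized counts in Parafilm-sealed and 5.9, 34.3, 14.5 and 25.8 in aerated libraries. Its libraries overlapped, and the test of SAUR68 was not passed (limma log2 fold change -1.31 with SE 0.69 and adjusted p = 0.205). Over the whole arrays, summed normalized counts were 520, 375, 463 and 362 in Parafilm-sealed and 640, 718, 786 and 590 in aerated libraries for SAUR61 to SAUR65. For SAUR68 to SAUR67 the sums were 257, 182, 303 and 226 in Parafilm-sealed and 382, 457, 576 and 396 in aerated libraries. The ratios of the means, 0.630 and 0.534, were 0.663 and 0.588 without AER5.

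Outside the arrays, which were sought among the 33 genes only, 15 genes were tested. Of these, 4 (26.7%) were lower and 2 (13.3%) were higher in Parafilm-sealed plants, where 10.0% and 12.4% of all genes were. Were the other SAUR genes of the reference counted, SAUR50 and SAUR5 would join an array with SAUR49 and SAUR1 to SAUR4. SAUR6 would join one with SAUR7 and SAUR12, and SAUR15 one with SAUR13, SAUR14 and SAUR16. Both higher genes, SAUR6 and SAUR5, are among these. SAUR50 (AT4G34760, chromosome 4, 16582183 to 16583075), known for promoting the opening of cotyledons in light, had 648.6, 408.9, 555.9 and 530.4 normalized counts in Parafilm-sealed and 858.4, 925.1, 793.7 and 856.3 in aerated libraries. The log2 fold change was -0.70 (SE 0.14, limma adjusted p = 0.00637). In SAUR50, unlike most genes of the arrays, AER5 was the lowest aerated library. SAUR32 (AT2G46690, chromosome 2, 19180705 to 19181600), studied for its part in the apical hook, had 255.5, 186.4, 213.6 and 253.9 normalized counts in Parafilm-sealed and 375.5, 368.9, 495.8 and 418.7 in aerated libraries. For SAUR32 the log2 fold change was -0.87 (SE 0.15, limma adjusted p = 0.00301), with a wide gap between the treatments. SAUR52 (AT1G75590, chromosome 1, 28382813 to 28383769) had 31.6, 38.5, 36.1 and 58.0 normalized counts in Parafilm-sealed and 70.6, 85.7, 172.7 and 101.5 in aerated libraries. Its log2 fold change was -1.32 (SE 0.30, limma adjusted p = 0.0116), and AER5 was again the highest library. SAUR15 (AT4G38850, chromosome 4, 18126057 to 18126829), long used as an auxin-inducible gene with a short-lived mRNA, had 58.5 to 89.2 normalized counts in Parafilm-sealed and 95.8 to 141.0 in aerated libraries. The ranges were close without overlap, and the log2 fold change of SAUR15 was -0.68 (SE 0.21, limma adjusted p = 0.0438). That call was lost without NON4 (adjusted p = 0.0965), NON6 (0.104), AER3 (0.115), AER5 (0.0556) or AER7 (0.127).

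SAUR6 and SAUR5 changed in the other direction. SAUR6 (AT2G21210, chromosome 2, 9084628 to 9086029) had 530.6, 602.5, 451.7 and 824.2 normalized counts in Parafilm-sealed and 294.0, 233.0, 327.0 and 305.2 in aerated libraries. This was a log2 fold change of 1.03 (SE 0.19, limma adjusted p = 0.00407), with no overlap, and the call was kept with each library left out in turn. The neighbouring SAUR7 (AT2G21200) shares 12.6% of the exon bases of SAUR6 on the same strand in the reference, and had 76.2, 58.9, 58.5 and 98.7 normalized counts in Parafilm-sealed and 49.6, 46.8, 54.1 and 49.0 in aerated libraries. SAUR5 (AT4G34810, chromosome 4, 16598958 to 16599568) had 104.1, 103.4, 53.1 and 60.3 normalized counts in Parafilm-sealed and 12.6, 45.7, 31.6 and 17.2 in aerated libraries. The log2 fold change of SAUR5 was 1.65 (SE 0.41, limma adjusted p = 0.0176). Both groups were spread widely, and NON6 and AER3 came closest to each other. Without NON2 (adjusted p = 0.0505) or AER7 (0.0555) the call was lost.

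**Figure D3:**
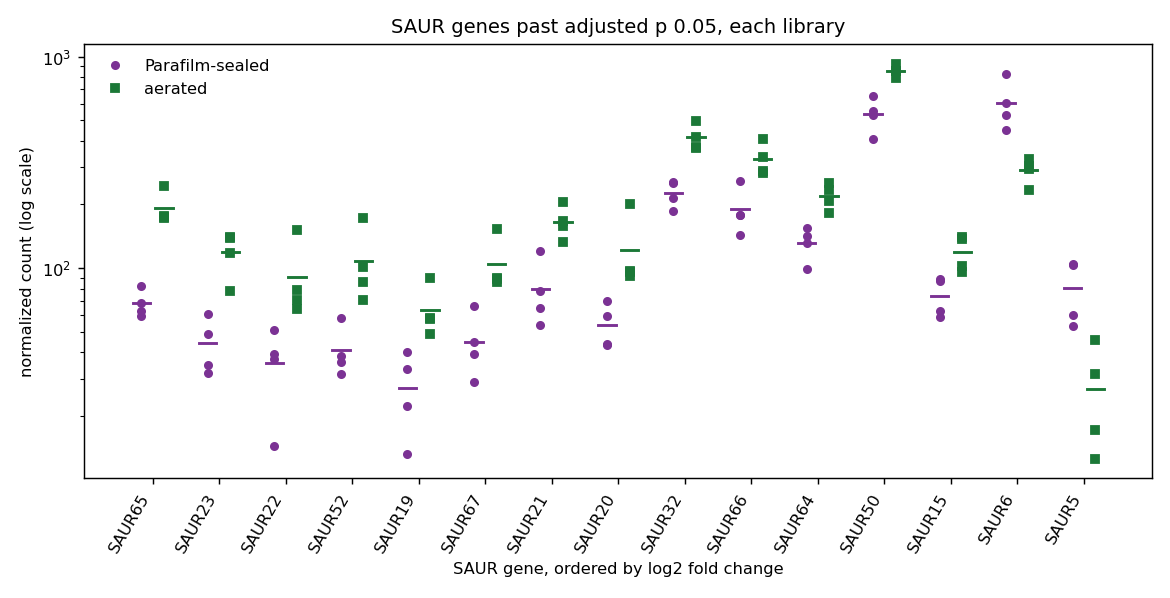
Normalized counts (y axis, log scale) of the 15 genes past adjusted p 0.05 in each library, Parafilm-sealed as circles left of aerated as squares, with lines at the means. From SAUR65 to SAUR15 every Parafilm-sealed library lies below every aerated one, and in SAUR6 and SAUR5 above.

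Levels of different genes were compared per kilobase of exon. SAUR50 had the highest level of the 32 genes, with 600 normalized counts per kb in Parafilm-sealed and 961 in aerated plants. SAUR36 followed in Parafilm-sealed plants with 438 per kb, against 278 in aerated plants, and SAUR6 with 430 per kb, against 207. In aerated plants SAUR32 was the second highest, with 254 per kb in Parafilm-sealed and 463 in aerated plants. In Parafilm-sealed plants the levels of SAUR36 and SAUR6 did not differ beyond the spread of their libraries. SAUR36 (AT2G45210), a gene that promotes leaf senescence, had 787.0, 536.4, 442.2 and 298.4 normalized counts in Parafilm-sealed and 329.3, 317.5, 357.3 and 303.5 in aerated libraries. NON8 lay below every aerated library and the other 3 Parafilm-sealed libraries above them, and SAUR36 did not pass the test (limma log2 fold change 0.57 with SE 0.25 and adjusted p = 0.122). Without NON8 the adjusted p was 0.0114 with a log2 fold change of 0.81, and by DESeq2's Wald test on all libraries it was 0.0436. The ARM repeat gene AT5G01830, the gene of the list with the most reads, had 909.7, 914.0, 794.0 and 1336.6 normalized counts in Parafilm-sealed and 603.1, 670.4, 768.7 and 741.1 in aerated libraries. Its treatments did not overlap, but the test was not passed by limma (log2 fold change 0.48, SE 0.16, adjusted p = 0.0543). By edgeR's quasi-likelihood test the adjusted p of AT5G01830 was 0.0492 and by DESeq2's Wald test 0.0231.

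The other tested genes without a call were SAUR41, SAUR71, SAUR72, SAUR9, SAUR56, SAUR57 and SAUR70, with log2 fold changes between -1.03 and -0.29. SAUR41, SAUR71 and SAUR72 belong to a subgroup of the family studied for hypocotyl growth. SAUR41 (AT1G16510) had 162.6, 157.5, 73.3 and 55.0 normalized counts in Parafilm-sealed and 174.7, 194.2, 254.5 and 212.4 in aerated libraries. All Parafilm-sealed libraries of SAUR41 were lower, but spread widely (limma log2 fold change -1.03 with SE 0.34 and adjusted p = 0.0522). SAUR70 (AT5G20810) had 10.2, 9.6, 12.8 and 9.0 normalized counts in Parafilm-sealed and 26.0, 26.3, 15.8 and 18.9 in aerated libraries. It was just outside the threshold (limma log2 fold change -0.98 with SE 0.32 and adjusted p = 0.0502) and passed with edgeR (adjusted p = 0.0324) and DESeq2 (0.0384). Only 8 to 31 reads per library lay behind SAUR70.

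The windows upstream of the genes were searched for hexamers on both strands, from 250 bases before to 50 bases after the annotated start in TAIR10.1. TGTCTC is the classical auxin response element bound by ARFs, TGTCGG a variant of it, CACGTG the G-box, CATGTG an E-box, and CGTGTG a string close to the G-box. CATGTG occurred in 17 of the 33 windows (51.5%), in 16 of 47 windows of the other SAUR genes of the reference (34.0%) and in 12.9% of the windows of all 27443 protein-coding nuclear genes. It was present in 8 of the 13 genes that were lower in Parafilm-sealed plants (61.5%), in both that were higher and in 3 of the 12 that did not pass (25.0%). TGTCTC occurred in 8 of 33 windows (24.2%), where 14.2% of all windows held it, and in 3 of 47 windows of the other SAUR genes (6.4%). It was present in 5 of the 13 lower genes (38.5%), in 1 of the 2 higher ones and in 1 of the 12 that did not pass (8.3%). CACGTG and CGTGTG were in none of the 33 windows, where 7.7% and 6.5% of all windows held them, and TGTCGG was in 1, where 5.1% did. Copies in an array share sequence by descent, so that the windows are not independent, and a match of letters is not a binding site. The lower genes with both TGTCTC and CATGTG in the 250 bases before the start were SAUR66, SAUR67, SAUR15 and SAUR22. Their 250 bases are shown 5′ to 3′ on the strand of the gene, with both hexamers in capitals (CACATG and GAGACA are the same letters on the other strand).
SAUR66 (chr1:10320761-10321010, plus strand): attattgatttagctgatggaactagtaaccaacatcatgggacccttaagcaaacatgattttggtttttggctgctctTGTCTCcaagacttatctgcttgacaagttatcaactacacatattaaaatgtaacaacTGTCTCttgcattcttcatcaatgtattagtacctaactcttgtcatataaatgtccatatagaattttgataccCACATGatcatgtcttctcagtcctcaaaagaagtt
SAUR67 (chr1:10322173-10322422, plus strand): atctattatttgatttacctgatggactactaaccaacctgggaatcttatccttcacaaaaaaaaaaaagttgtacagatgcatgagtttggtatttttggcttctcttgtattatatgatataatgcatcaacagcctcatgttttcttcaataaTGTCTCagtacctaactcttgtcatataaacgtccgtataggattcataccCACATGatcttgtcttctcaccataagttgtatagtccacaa
SAUR15 (chr4:18125807-18126056, plus strand): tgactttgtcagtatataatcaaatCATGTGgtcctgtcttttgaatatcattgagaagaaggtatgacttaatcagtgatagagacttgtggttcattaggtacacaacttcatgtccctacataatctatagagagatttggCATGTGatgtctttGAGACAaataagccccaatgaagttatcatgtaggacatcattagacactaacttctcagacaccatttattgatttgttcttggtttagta
SAUR22 (chr5:5975088-5975337, minus strand): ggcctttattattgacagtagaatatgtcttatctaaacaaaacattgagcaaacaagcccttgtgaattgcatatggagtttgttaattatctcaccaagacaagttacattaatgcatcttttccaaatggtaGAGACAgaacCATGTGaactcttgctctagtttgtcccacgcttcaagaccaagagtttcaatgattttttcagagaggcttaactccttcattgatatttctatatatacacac
SAUR66 and SAUR67, neighbours in the array on chromosome 1, both hold CACATG in the last part of the stretch, and SAUR66 holds a second copy of TGTCTC. SAUR15 has CATGTG at 2 positions.

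The deposited descriptions name a part of the family only. The reference annotation gives a SAUR name to 47 further genes, which were compared after the values of the 33 genes were known. Of these 47, 30 were tested, with 7 lower and 4 higher in Parafilm-sealed plants (10.0% and 12.4% over all genes) and a median log2 fold change of -0.07. This was unlike the 13 lower and 2 higher of the 27 genes and their median of -0.87, but the difference between the lists was not tested. SAUR16 (AT4G38860) and SAUR3 (AT4G34790) were lower by log2 fold changes of -1.15 (SE 0.16, limma adjusted p = 0.00103) and -1.27 (SE 0.24, limma adjusted p = 0.00476). SAUR46, SAUR29, SAUR27, SAUR49 and SAUR14 were the other genes that were lower. With each library left out in turn, SAUR46 and SAUR29 kept their calls in 3 of 8 fits, and SAUR27 and SAUR14 in 1 of 8. Among the higher genes, SAUR78 (AT1G72430) had 5220, 5248, 7460 and 5698 normalized counts in Parafilm-sealed and 3089, 3269, 3393 and 2900.0 in aerated libraries. SAUR79 (AT2G35290) had 1201, 785, 1370 and 590 normalized counts in Parafilm-sealed and 335, 246, 297 and 187 in aerated libraries, a log2 fold change of 1.84 (SE 0.27, limma adjusted p = 0.00145). SAUR48 (AT3G09870) had 27.9, 26.5, 24.4 and 71.6 normalized counts in Parafilm-sealed libraries and 0.8, 3.4, 0.0 and 0.0 in aerated ones (adjusted p = 0.00109, limma), so that it was close to the limit of detection in aerated plants. SAUR30 was the fourth gene that was higher.

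Genes upstream and downstream of SAUR proteins were compared from lists of 57 genes, of which 52 were tested, with 13 lower and 5 higher in Parafilm-sealed plants, where 10.0% and 12.4% of all genes tested were. Without AER7, 8 were lower and 4 were higher, where 1155 and 1697 of all 20316 genes tested in that fit were. The lists were written with earlier results of these data known. Of the carriers that move auxin, 5 of 8 were lower, with a median of -0.85 on the log2 scale. The efflux carrier PIN7 had 3683, 2275, 2357 and 3172 normalized counts in Parafilm-sealed and 5078, 7064, 6375 and 6806 in aerated libraries (limma log2 fold change -1.16 with SE 0.17 and adjusted p = 0.00139). No library of PIN7 overlapped with the other treatment. PIN4 and PIN3, also efflux carriers, were lower with log2 fold changes of -1.01 (adjusted p = 0.00470, limma) and -0.81 (adjusted p = 0.0120). The influx carriers AUX1 and LAX1 were lower with log2 fold changes of -0.93 (adjusted p = 0.00303, limma) and -0.89 (adjusted p = 0.0188). The call of LAX1 was lost without AER5 (adjusted p = 0.0541) or AER7 (0.0511).

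GH3 enzymes join auxin to amino acids, and their genes, like SAUR genes, are induced by auxin. Of 7 listed, 5 were tested and 3 were lower, where 10.0% of all genes tested were. GH3.6 had 983, 844, 747 and 1427 normalized counts in Parafilm-sealed and 2113, 2627, 2634 and 2602 in aerated libraries (limma log2 fold change -1.36 with SE 0.18 and adjusted p = 0.000970). GH3.5 had 874, 761, 638 and 1335 normalized counts in Parafilm-sealed and 1612, 2130.0, 2253 and 1964 in aerated libraries (limma log2 fold change -1.19 with SE 0.21 and adjusted p = 0.00336). In both, NON8 was the highest Parafilm-sealed library and still below the aerated ones. GH3.2 was lower by a log2 fold change of -0.59 (adjusted p = 0.0361, limma), a call lost without NON2 (adjusted p = 0.0621), NON4 (0.0825), NON6 (0.0586), AER3 (0.0974) or AER7 (0.0918).

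Genes of auxin synthesis went in both directions. YUC2 and YUC9, flavin monooxygenases of the last step of synthesis, were lower with log2 fold changes of -1.05 (adjusted p = 0.010, limma) and -1.21 (adjusted p = 0.0322). YUC5, of the same step, was higher by a log2 fold change of 1.20 (adjusted p = 0.0239, limma). Calls were lost for YUC9 without NON2 (adjusted p = 0.0506), NON4 (0.0731), NON8 (0.0514), AER1 (0.0676), AER3 (0.0922) or AER7 (0.0919), and for YUC5 without NON2 (0.0653), NON4 (0.0523), AER1 (0.0590) or AER7 (0.0594). The other 7 of 10 tested genes did not pass. Of the synthesis genes 20% were thus lower and 10% higher, where 10.0% and 12.4% of all genes tested were. Of 6 auxin receptor genes TIR1 passed, with 3091, 2562, 3139 and 2977 normalized counts in Parafilm-sealed and 4496, 4385, 4068 and 5227 in aerated libraries (limma log2 fold change -0.63 with SE 0.11 and adjusted p = 0.00287). Of 5 activating ARF genes ARF5 passed, with a log2 fold change of -0.43 (adjusted p = 0.0206, limma), a call that was lost without AER7 (adjusted p = 0.0712). Since 10.0% of all genes tested were lower, 1 called gene does not set a list of 5 or 6 apart from all genes.

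The PP2C.D phosphatases, which SAUR proteins inhibit, were the list with the most genes higher in Parafilm-sealed plants. Of 9 genes, all tested, 4 were higher and 1 was lower, where 12.4% and 10.0% of all genes tested were. APD9 (AT5G66080) had 1463, 880, 1465 and 1375 normalized counts in Parafilm-sealed and 643, 586, 676 and 483 in aerated libraries (limma log2 fold change 1.10 with SE 0.18 and adjusted p = 0.00234). APD5 (AT4G33920) had 3257, 3015, 4852 and 4665 normalized counts in Parafilm-sealed and 2049, 2165, 1942 and 1481 in aerated libraries (limma log2 fold change 1.03 with SE 0.18 and adjusted p = 0.00334). In both genes the treatments stood well apart. AT3G55050 and AT3G12620 were higher by log2 fold changes of 0.95 (adjusted p = 0.000862, limma) and 0.54 (adjusted p = 0.0139). AT3G17090 was lower by a log2 fold change of -0.26 (adjusted p = 0.0369, limma), a call that was kept in 2 of the 8 fits that left out a library and lost without NON2 (adjusted p = 0.0708), NON4 (0.0625), NON6 (0.0822), NON8 (0.0594), AER3 (0.102) or AER7 (0.115). Of 11 plasma membrane proton pump genes of the AHA family, the targets of these phosphatases, 9 were tested and 0 passed with limma, edgeR or DESeq2. At an unadjusted p under 0.05, 1 passed with limma, 1 with edgeR and 2 with DESeq2. The share of all genes at this unadjusted threshold was not taken, so these counts cannot be called few or many.

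**Figure D4:**
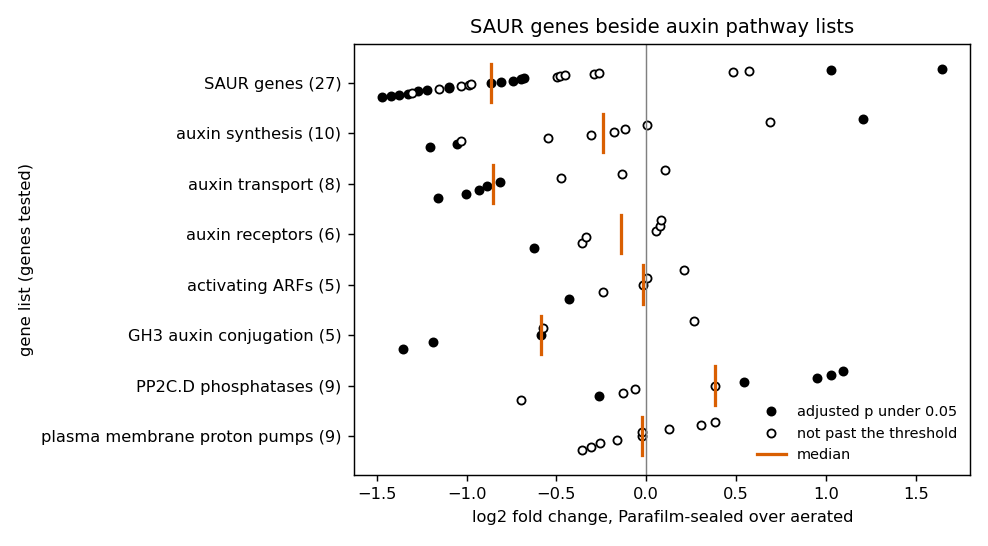
Log2 fold changes, Parafilm-sealed over aerated (x axis), of the 27 tested SAUR genes and of the genes of each auxin pathway list, with filled points past adjusted p 0.05 and a line at the median. The medians of SAUR genes (-0.87) and auxin carriers (-0.85) lie lowest, and 4 of the PP2C.D genes are filled right of 0.

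Between 34330463 and 60255788 reads per library lay behind these values, with similar medians in Parafilm-sealed (45635546) and aerated (44035543) plants. The shoot markers RBCS1A, RCA, CAB1, LHCB2.1 and PSAD-1 were high in every library, with sums of 1759711 to 2283257 normalized counts in Parafilm-sealed and 2188743 to 2962721 in aerated libraries. The root hair and root markers EXPA7, EXPA18, COBL9, LRX1 and PRP3 were low, with sums of 30.7, 34.8, 64.8 and 70.1 in Parafilm-sealed and 223.4, 61.7, 229.3 and 132.4 in aerated libraries. EXPA7 and EXPA18 did not exceed 8.5 normalized counts in Parafilm-sealed and 22.4 in aerated libraries. The root markers were thus higher in 3 of 4 aerated libraries than in any Parafilm-sealed one, and their part in the SAUR result was not tested. Without AER1 and AER5, the libraries with the highest root sums, 5 SAUR genes were lower and 1 was higher of 26 tested, with a median of -0.81 on the log2 scale. Over all genes, 837 of 20163 were lower and 1223 were higher in that fit, against 2018 and 2490 of 20160 with all libraries. The flower markers AG and AP3 summed to 11.3 to 42.0 normalized counts in Parafilm-sealed and 38.7 to 64.6 in aerated libraries.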

How the data were processed

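Shoots of Col-0 from 4 Parafilm-sealed and 4 aerated plates were sequenced (unstranded, single-end reads of 100 bases). The authors aligned them to TAIR10 with HISAT2 2.0.4, assigned them to Araport11 genes with featureCounts 1.5.2 and divided each count by the DESeq2 size factor of its library. The deposited signal is this normalized count, rounded to 1 decimal. Columns of the authors' log2 fold changes and adjusted p-values were not used, nor was the deposited table of a second set of plants, which holds such comparisons and no value per library. The table names libraries by treatment and library number, so libraries were assigned to a treatment but not to a replicate.

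Because the values are multiples of a step in each library, whole reads were recovered (100% of values under 100 lay within 0.052 of a multiple). The fewer reads a gene has, the larger its counting error. Log2(normalized count + 1) was fitted with limma 3.58.1 (trend) in R 4.3.3 over 20160 genes that reached 10 normalized counts in 4 or more libraries. The test was two-sided, the threshold was an adjusted p of 0.05 (Benjamini-Hochberg over all tested genes), and a fold change of 2 was used as in the study. Fold changes are on the scale with a pseudocount of 1, which understates changes of low genes. Alternatives were edgeR 4.0.16 (quasi-likelihood, TMM) and DESeq2 1.42.0 (Wald) on the recovered reads, TMM factors or library totals before limma, pseudocounts of 0.5 and 10, a limit of 1 read in any library, and leaving out each library (limit then 3 libraries). Scripts were tested on simulated data.

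SAUR genes were found by the word in the deposited description, with names from there or from the reference. Values are given for every gene past the threshold, with values per library for the 12 largest changes in each direction, for the 5 genes with the highest mean CPM and for all genes of an array. Arrays were sought among the 33 genes only. Array genes start within 10 kb of the next, with at least 3 genes. Further SAUR genes and a few genes near the threshold were chosen after their values were seen. The rule for the 33 genes uses the description and no measured value. That rule and the pathway lists were chosen with earlier results of these data known. Coordinates, overlaps and sequences are from RefSeq TAIR10.1, which held 33011 of 33296 identifiers (99.1%), and the deposited files carry no coordinates. The libraries come from separate plates, and p-values measure the spread between plates.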

Additional observations from a re-analysis of the deposited data

Results flagged for a closer look

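In 6 of 54 groups of 4 libraries (27 genes in each treatment), a library stood apart from the other 3 by a share of the group's range above Dixon's 95% critical value, where chance gives about 1 in 20 groups. In the aerated group AER5 was the highest library in SAUR65 (243.9 normalized counts, gap 0.957 of the range), SAUR20 (200.4, gap 0.953), SAUR67 (152.9, gap 0.945) and SAUR22 (151.6, gap 0.8292). These genes lie in arrays and share AER5, so that the flags are not independent. AER1 was the lowest aerated library in SAUR71 (70.6, gap 0.836). Among Parafilm-sealed libraries NON4 was the lowest in SAUR24 (19.2, gap 0.866). Without AER5, SAUR65 (log2 fold change -1.35), SAUR20 (-0.83) and SAUR67 (-1.02) kept their calls, and SAUR22 (-1.11, adjusted p = 0.0900) lost it.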

How the results depend on the processing

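All 15 calls of SAUR genes held with edgeR, DESeq2, TMM factors, library totals and both other pseudocounts, and with the limit of 1 read 14 held (SAUR15 had an adjusted p of 0.0695). DESeq2 called 16 lower and 4 higher genes, where 2532 of all 20160 genes tested were lower and 3137 higher. With a library left out, 10 to 14 genes were lower and 1 to 3 higher, of which 5 to 8 and 1 to 2 changed at least 2-fold, the median log2 fold change was -0.93 to -0.68, and 8 to 14 pathway genes were lower and 4 to 5 higher. The calls over all genes moved in these fits too. They were fewest without AER7 (1155 lower and 1697 higher of 20316) and most without NON8 (2327 lower and 2738 higher of 20334). The count of SAUR genes lower by at least 2-fold was 5 without NON4 and 5 without AER5. The single higher gene without NON2 or AER7 was SAUR6, and without NON8 or AER3 the count of higher genes past 2-fold was 1. The limit of 1 read gave 3 higher genes past 2-fold. Pairs of libraries were left out after the data were seen. Without AER5 and NON4, which were highest in 19 and lowest in 12 of 26 genes within their treatments, 7 genes were lower and 1 higher (3 and 1 by 2-fold), the median was -0.61, 3 pathway genes were higher, and SAUR56 changed sign (0.19, not past the threshold). Without AER1 and AER5, 5 genes were lower and 1 higher (3 and 1 by 2-fold), with 8 pathway genes lower and 3 higher. Over all genes, 1361 of 20167 were lower and 1896 higher without AER5 and NON4. Without AER1 and AER5, 837 of 20163 were lower and 1223 higher. No called gene changed sign in any of these fits. No paired analysis was possible because the columns carry library numbers and not replicate numbers. Few reads lay behind SAUR68, SAUR57, SAUR56 and SAUR70, with at most 34.3 normalized counts in a library, and the 6 genes that were not tested had at most 3.4.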
